A study of Mus musculus with 8 samples.

Results

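The members described here are the genes of the placental prolactin, pregnancy-specific glycoprotein (Psg), Ceacam and cathepsin clusters of the mouse. The families were chosen with earlier results of these data known, and within them members were taken by symbol alone. The rule took every gene row named Prl with a digit and a letter, or Psg or Ceacam with a number. It also took Cts3, Cts6, Cts7, Cts8, Ctsj, Ctsm, Ctsq and Ctsr. The members made up 62 of the 24062 gene rows. There were 26 prolactin genes, 13 Psg, 15 Ceacam and 8 cathepsin genes. RNA-seq of poly(A) RNA was available from mouse embryonic stem cells (mESCs) of the line #33-6, in which Setdb1, the gene of a histone H3K9 methyltransferase, can be deleted. WT mESCs were these cells without treatment. UNC0642-treated mESCs received 2 µM of this inhibitor of the H3K9 methyltransferases G9a and GLP for 3 days, and Setdb1 KO mESCs received 800 nM 4-OHT (4-hydroxytamoxifen, which induces the deletion) for 5 days. UNC0642-treated Setdb1 KO mESCs received, according to the labels, 800 nM 4-OHT for 2 days and then 2 µM UNC0642 for 3 days. Each condition had 2 biological replicates, and every library came from this line and carried the conditional allele. No library received 4-OHT without deletion, so 4-OHT and the loss of Setdb1 cannot be told apart. By these labels the 2 KO conditions also differed in the days of 4-OHT, whereas the general treatment protocol names only 5 days.

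The placental prolactins, Psg genes and placental cathepsins multiplied by repeated duplication in the rodent lineage and are best known from the placenta. Several Ceacam members are known from other tissues, as given below. Placental prolactins are secreted hormones made by trophoblast giant cells and spongiotrophoblast, and act on the maternal ovary, mammary gland, blood vessels and immune cells. Psg proteins are secreted immunoglobulin-type glycoproteins of the carcinoembryonic antigen family, whose other branch, the Ceacam proteins, are mostly adhesion molecules at the cell surface. The placental cathepsins are cysteine proteases related to cathepsin L. Embryonic stem cells correspond to the epiblast, which does not form trophoblast.

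By position (GRCm38, GENCODE M21) 61 of the 62 members could be placed. The 22 prolactin genes of the main cluster lie on chromosome 13 between 27094190 and 28151611, 3 Prl2c genes between 12790816 and 13191923 of the same chromosome, and the 8 cathepsins between 61000179 and 61570127. All placed Psg and Ceacam genes lie on chromosome 7, with 21 of them between 16671331 and 18821607. Ceacam16, Ceacam19 and Ceacam20 lie between 19852097 and 19991104, Ceacam10, Ceacam1 and Ceacam2 between 24777206 and 25539857, and Ceacam18 at 43634707. Prl2c4 was not placed.

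The sequences around the start of the 4 members that were called in at least 1 fit are shown because the results below turn on them. They run 5′ to 3′ from 250 bases before to 50 bases after the start, from RefSeq on GRCm38.p6. For Ceacam2 (chr7:25539955-25540254, minus strand), Ceacam19 (chr7:19887916-19888215, minus strand) and Prl4a1 (chr13:28015962-28016261, plus strand), capitals mark AGATAA, the core of a GATA factor motif, on either strand, and GGAATG, the core of a TEAD factor motif. The promoter of Psg23 (chr7:18616452-18616751, minus strand) is set against that of Psg21 (chr7:18656676-18656975, minus strand), and there capitals mark the bases that differ in the alignment of the pair.
Ceacam2: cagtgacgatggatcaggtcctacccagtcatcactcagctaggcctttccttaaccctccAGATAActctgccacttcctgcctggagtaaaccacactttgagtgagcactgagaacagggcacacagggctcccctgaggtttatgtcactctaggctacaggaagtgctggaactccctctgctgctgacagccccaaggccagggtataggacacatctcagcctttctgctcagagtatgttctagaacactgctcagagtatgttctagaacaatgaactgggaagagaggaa
Ceacam19: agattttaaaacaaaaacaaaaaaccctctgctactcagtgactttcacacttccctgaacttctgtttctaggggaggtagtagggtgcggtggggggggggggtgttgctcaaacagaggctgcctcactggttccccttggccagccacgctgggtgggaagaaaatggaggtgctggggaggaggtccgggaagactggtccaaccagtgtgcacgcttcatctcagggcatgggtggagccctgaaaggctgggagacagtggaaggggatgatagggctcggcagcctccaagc
Prl4a1: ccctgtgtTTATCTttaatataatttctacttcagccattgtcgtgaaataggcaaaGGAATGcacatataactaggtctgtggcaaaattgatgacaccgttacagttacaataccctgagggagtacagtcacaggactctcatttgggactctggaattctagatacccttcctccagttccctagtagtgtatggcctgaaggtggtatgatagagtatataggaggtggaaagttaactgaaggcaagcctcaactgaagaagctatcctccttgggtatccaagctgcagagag
Psg23: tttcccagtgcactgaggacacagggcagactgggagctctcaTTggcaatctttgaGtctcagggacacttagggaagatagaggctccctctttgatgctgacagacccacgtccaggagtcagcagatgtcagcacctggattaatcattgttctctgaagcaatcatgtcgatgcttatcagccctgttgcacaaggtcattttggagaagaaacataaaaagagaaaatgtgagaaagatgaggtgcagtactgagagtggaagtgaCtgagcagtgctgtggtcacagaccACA
Psg21: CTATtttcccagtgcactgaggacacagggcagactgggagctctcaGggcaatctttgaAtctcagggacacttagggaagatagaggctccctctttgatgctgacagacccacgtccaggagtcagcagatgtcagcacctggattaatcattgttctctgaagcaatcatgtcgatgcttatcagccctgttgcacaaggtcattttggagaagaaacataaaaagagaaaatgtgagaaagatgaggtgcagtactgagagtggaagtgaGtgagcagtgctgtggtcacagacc

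Libraries held from 11702590 to 26807807 counts. Levels are given as CPM, counts per 1000000 counts of a library whose size was adjusted by TMM normalization. The detection floor, 3 counts, corresponds to between 0.112 and 0.256 CPM before TMM, and shares and floors cover counting error only. The targeted gene Setdb1 was at 169 and 127 CPM in WT mESCs and at 130 and 86.3 CPM with UNC0642. After deletion it was at 47.3 and 51.0 CPM without and at 61.1 and 34.1 CPM with UNC0642, so both KO conditions lay below all libraries without deletion. The log2 fold change of Setdb1 KO over WT mESCs was -1.59 (SE 0.44, adjusted p = 0.18, and 0.016 when the replicate number was a block in the fit). The 10 pluripotency markers summed to between 2341 and 4980 CPM in the 8 libraries, and none of them was called in any comparison. The defining spongiotrophoblast genes Tpbpa and Tpbpb had 4 and 2 counts over all libraries, and pituitary prolactin, Prl, had 0.

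Most of these genes were silent or nearly silent in every condition. Of the 62 members, 16 (25.8%) had 0 counts in the 8 libraries, 26 had between 1 and 9 counts in all and 20 (32.3%) had at least 10, whereas 13.8% of all genes had 0 and 73.1% had at least 10. A count of 0 among the 164039275 counts of all libraries allows a level of up to 0.0183 CPM. The families differed in this respect. In the Ceacam family 9 of 15 genes and in the Psg family 8 of 13 reached 10 counts, against 2 of 8 cathepsins (Cts7 and Ctsr) and 1 of 26 prolactin genes (Prl4a1). Ceacam1, Ceacam2, Ceacam20 and Psg23 together held 90.5% of the 10041 counts of all members.

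**Figure D1:**
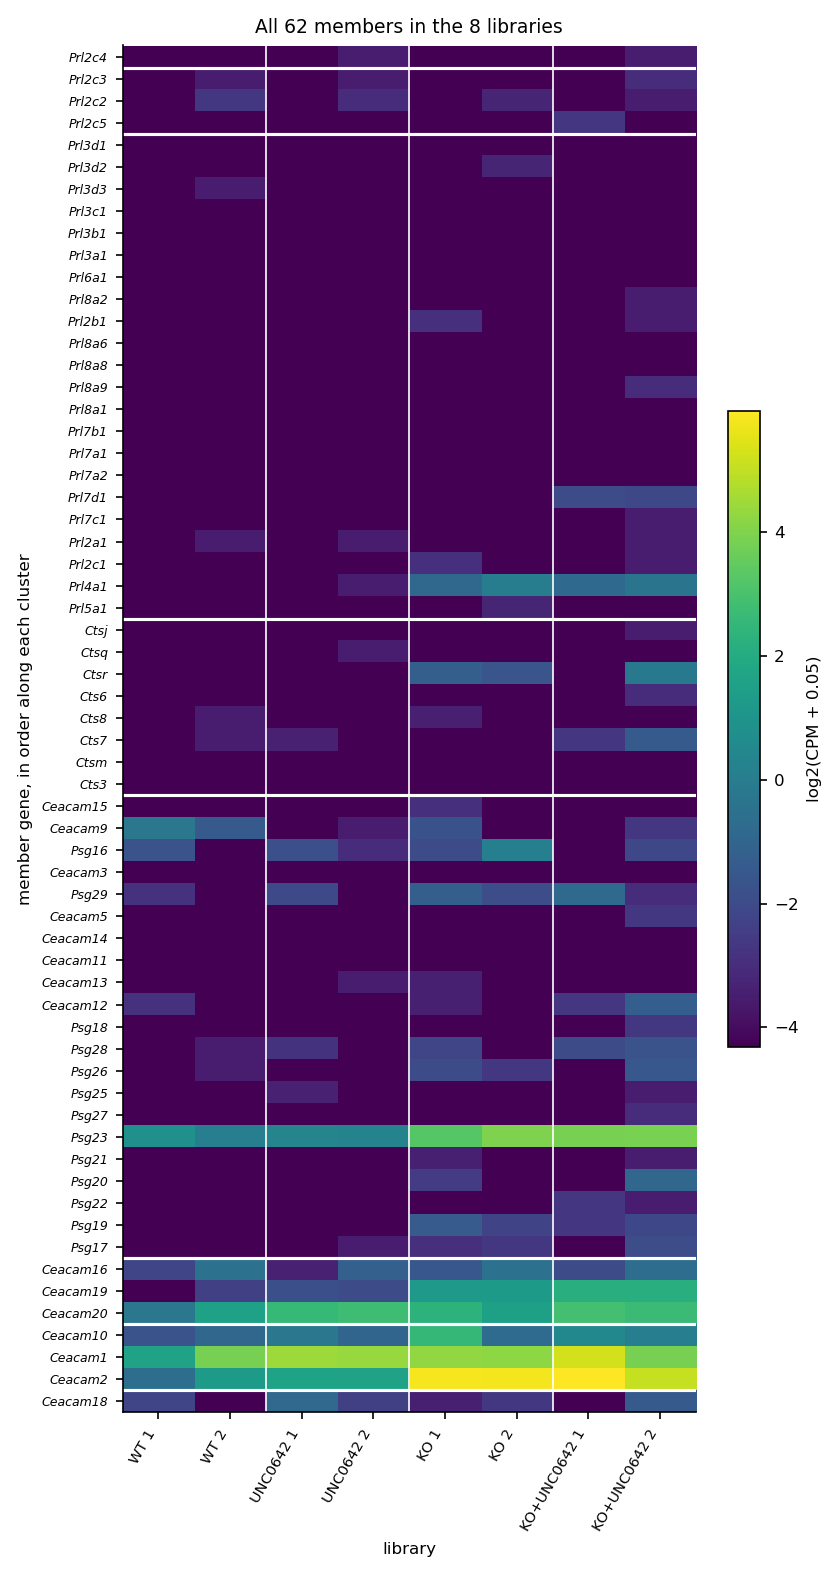
Level of all 62 members as log2(CPM + 0.05), by colour, in the 8 libraries (columns) and in the order of the genes along each cluster (rows, with white lines between clusters; Prl2c4, not placed, is at the top). The prolactin rows other than Prl4a1 are mostly dark, and the brightest rows are Ceacam2, Ceacam1, Ceacam20 and Psg23.

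Of the prolactin genes, 11 had no count. These were Prl3a1, Prl3b1, Prl3c1, Prl3d1, Prl6a1, Prl7a1, Prl7a2, Prl7b1, Prl8a1, Prl8a6 and Prl8a8, among them the placental lactogen genes Prl3d1 and Prl3b1. A further 14 were under 10 counts: Prl2a1, Prl2b1, Prl2c1, Prl2c2, Prl2c3, Prl2c4, Prl2c5, Prl3d2, Prl3d3, Prl5a1, Prl7c1, Prl7d1, Prl8a2 and Prl8a9. Reads of several of these could not be attributed with certainty, since 50.9% of the 150-base windows of the Prl2c2 transcript are also present in another transcript. The cathepsins Cts3 and Ctsm had no count, and Cts6, Cts8, Ctsj and Ctsq were under 10. Ceacam3, Ceacam11 and Ceacam14 had no count, and Ceacam5, Ceacam13, Ceacam15, Psg18, Psg21, Psg22, Psg25 and Psg27 were under 10. No Psg gene was at 0 in all libraries.

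The number of members with at least 1 count differed between libraries. It was 11 and 16 in WT mESCs, 13 and 18 with UNC0642, 25 and 18 after deletion and 16 and 38 after deletion with UNC0642. Replicate 2 of the last condition thus stood apart, with 13 of 13 Psg and 11 of 26 prolactin genes detected. Its total of 26250060 counts was close to the 26807807 counts of Setdb1 KO replicate 1, in which 9 Psg and 3 prolactin genes were detected. In this library alone 8 members were detected (Ceacam5, Cts6, Ctsj, Prl7c1, Prl8a2, Prl8a9, Psg18 and Psg27), each with at most 3 counts. Since the other replicate did not show this, no difference between conditions is drawn from it.

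**Figure D2:**
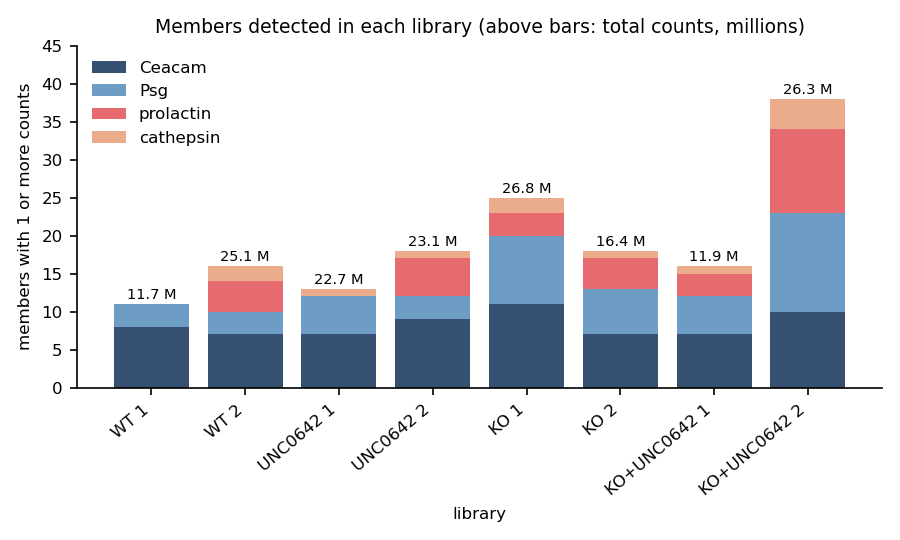
Number of members with 1 or more counts in each library, stacked by family, with the total counts of the library, divided by 1000000, above each bar. UNC0642-treated Setdb1 KO replicate 2 has 38 members detected, and the other 7 libraries have between 11 and 25.

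The comparison of Setdb1 KO with WT mESCs asks which of these genes depend on SETDB1. In Setdb1 KO mESCs, Ceacam2 and Psg23 rose, by 35.5-fold and 9.22-fold, and Ceacam19 and Prl4a1 showed fold changes of 24.0 and of at least 4.06 that were called only in some fits. No member fell. Of the 20 members with at least 10 counts, 8 passed the filter on low counts and were tested, 6 Ceacam genes with Psg23 and Prl4a1. Ceacam10, Ceacam16, Ceacam19 and Prl4a1 passed it without reaching its level in both WT libraries. Ceacam19 and Prl4a1 stayed under its level of 0.436 CPM in every library without deletion and passed only through those with deletion. Counts of called members that include them are therefore given as a description. In this comparison 2 of the 8 tested members were called higher at an adjusted p under 0.05 (edgeR quasi-likelihood test), where 0.882% of the 15313 tested genes were called higher. With the block, 4 of the 8 were called higher (2.8% of all genes). Over the study's threshold of a 10-fold change, Ceacam2 was called (0.731% of all genes).

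Ceacam2, an adhesion molecule that lies beside its paralog Ceacam1, had 7 and 67 counts in WT mESCs, 65 and 82 with UNC0642, 1350 and 1008 after deletion of Setdb1, and 601 and 901 after deletion with UNC0642. Every library with deletion lay above every library without it. How many of all tested genes separated in this way was not counted, here and for the members below. As a level, Ceacam2 went from 1.51 ± 1.28 CPM (SD, n = 2) in WT to 56.3 ± 1.20 CPM in Setdb1 KO mESCs. In bulk RNA, for this and all members, more RNA per cell and more cells with the RNA cannot be told apart. The log2 fold change was 5.15 (SE 0.69, adjusted p = 0.012). It was 6.51 without WT replicate 2 and 4.54 without WT replicate 1, and neither passed the threshold (adjusted p = 0.071 and 0.13).

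Psg23, a secreted glycoprotein of the Psg family, had 20 and 28 counts in WT mESCs and 26 and 32 with UNC0642. After deletion it had 224 and 283 counts, and 139 and 400 with UNC0642 in addition, again with no overlap. The level rose from 1.38 ± 0.52 to 12.5 ± 4.30 CPM (SD, n = 2), with a log2 fold change of 3.20 (SE 0.58, adjusted p = 0.035). This call was lost when any of the WT, Setdb1 KO or UNC0642-treated Setdb1 KO libraries was left out (adjusted p between 0.054 and 0.34) and under total counts normalization (0.079), at log2 fold changes between 2.78 and 3.62. It held with the block and by DESeq2. Psg23 was thus present in WT mESCs already, where no other Psg gene had more than 3 counts in a library.

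Ceacam19, a transmembrane member of the family, had 0 and 4 counts in WT mESCs, 5 and 6 with UNC0642, 55 and 43 after deletion and 43 and 118 after deletion with UNC0642. The groups with and without deletion did not overlap. The log2 fold change of Setdb1 KO over WT mESCs was 4.59 (SE 0.91). Its adjusted p of 0.054 missed the threshold, and it was 0.013 with the block, 0.00076 by DESeq2 on all libraries and 0.0083 by DESeq2 on the 4 libraries compared. Without WT replicate 1 the log2 fold change was 3.97 (adjusted p = 0.28) and without WT replicate 2, when the remaining WT library was at 0, 8.53 (adjusted p = 0.20). Because these WT counts are at or near the floor of 3 counts, the size of the fold change depends on them.

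Prl4a1, also known as prolactin-like protein A, a hormone that binds uterine natural killer cells, had 0 counts in both WT libraries and 0 and 1 with UNC0642. It had 12 and 18 counts after deletion and 5 and 20 after deletion with UNC0642, which makes it the only one of the 26 prolactin genes with more than 7 counts in all. The mean level in Setdb1 KO mESCs was 0.749 CPM, at least 4.06-fold higher than 3 counts per WT library. The adjusted p was 0.12, and 0.043 with the block, the only fit that called it in this comparison.

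**Figure D3:**
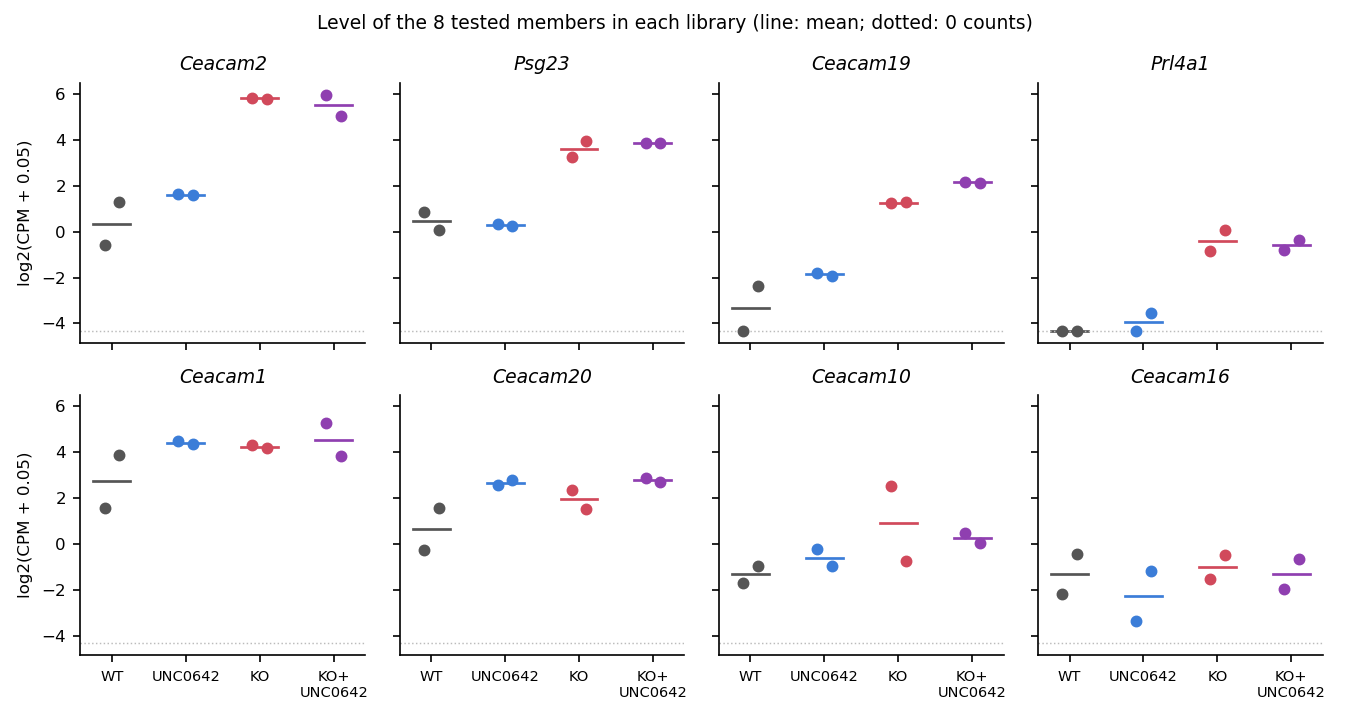
Level of the 8 tested members as log2(CPM + 0.05) in the 2 libraries (points) of each condition, with the mean of the points as a line and 0 counts as a dotted line. For Ceacam2, Psg23, Ceacam19 and Prl4a1 the libraries with deletion lie above all others, and for Ceacam1, Ceacam20, Ceacam10 and Ceacam16 the libraries with and without deletion overlap. The share of all tested genes that separate in this way was not counted.

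The other 4 tested members were not called in any fit. Ceacam1, an adhesion receptor of epithelia and the receptor of mouse hepatitis virus, had 34 and 405 counts in WT mESCs, 471 and 570 with UNC0642, 463 and 334 after deletion and 368 and 388 after deletion with UNC0642. WT replicate 1 was low for Ceacam1, at 2.96 against 14.6 CPM in replicate 2, and the remaining libraries lay between 14.3 and 38.2 CPM. Ceacam20, a membrane protein of the intestinal brush border, showed the same low WT replicate 1, with 9 and 81 counts in WT mESCs, 125 and 190 with UNC0642, 119 and 52 after deletion and 71 and 176 after deletion with UNC0642. The log2 fold changes of Setdb1 KO over WT mESCs were 1.10 (SE 0.72, adjusted p = 0.86) for Ceacam1 and 1.06 (SE 0.68, adjusted p = 0.84) for Ceacam20.

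Ceacam10, a secreted member, had 3 and 13 counts in WT mESCs, 17 and 13 with UNC0642, 136 and 10 after deletion and 13 and 27 after deletion with UNC0642. Its mean in Setdb1 KO mESCs was set by replicate 1, and replicate 2, at 0.550 CPM, lay within the range of the libraries without deletion (0.261 to 0.799 CPM). The log2 fold change was 3.04 (SE 1.07, adjusted p = 0.35). Ceacam16, a component of the tectorial membrane of the inner ear, had 2 and 19 counts in WT mESCs, 1 and 11 with UNC0642, 7 and 12 after deletion and 2 and 16 after deletion with UNC0642. Its conditions overlapped, with a log2 fold change of Setdb1 KO over WT mESCs of 0.05 (SE 1.12, adjusted p = 1.0).

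The other 12 members with at least 10 counts did not pass the filter. Without it 31 members could be tested, and those called were Ceacam2, Psg23 and Ceacam19. Ctsr, a placental cathepsin, had 0 counts in the 4 libraries without deletion, 9 and 5 after deletion and 0 and 23 after deletion with UNC0642. Its mean in Setdb1 KO mESCs was at least 1.78-fold higher than 3 counts per WT library. Cts7 had between 0 and 9 counts per library, with the 9 in UNC0642-treated Setdb1 KO replicate 2. Among the Psg genes, Psg16, a member that is also known from the brain, had between 0 and 19 counts, and Psg29 between 0 and 9. Psg17 ranged from 0 to 6 counts, Psg19 from 0 to 8, Psg20 from 0 to 13, Psg26 from 0 to 8 and Psg28 from 0 to 7. Ceacam9 had 9 counts in each WT library, 0 and 1 with UNC0642, 6 and 0 after deletion and 0 and 3 after deletion with UNC0642. Ceacam12 ranged from 0 to 10 and Ceacam18 from 0 to 11.

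The sum over each family, silent members included, has no test but gives the low members together. The 13 Psg genes summed to 2.09 and 1.08 CPM in WT mESCs, 1.79 and 1.26 with UNC0642, 11.1 and 17.2 after deletion and 15.4 and 16.7 after deletion with UNC0642. Psg23 made up most of this. The other 12 Psg genes summed to 0.348 and 0.0722 CPM in WT mESCs and 0.564 and 0.108 with UNC0642. They summed to 1.57 and 1.65 CPM after deletion and 0.934 and 1.98 after deletion with UNC0642. The libraries with deletion were thus higher in CPM for these as well, but on few counts. UNC0642-treated Setdb1 KO replicate 1 had 9 counts and UNC0642-treated replicate 1 had 12, so the order of these libraries rests on the scaling.

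The Ceacam genes summed to 5.83 and 21.6 CPM in WT mESCs, 32.7 and 31.6 with UNC0642, 90.6 and 80.4 after deletion and 114 and 60.7 after deletion with UNC0642. The prolactin genes summed to 0 and 0.216 CPM in WT and 0.677 and 1.16 in Setdb1 KO mESCs. Without Prl4a1 the remaining 25 prolactin genes summed to between 0 and 0.216 CPM in the libraries without deletion, to 0.169 and 0.165 after deletion and to 0.311 and 0.588 after deletion with UNC0642. The Setdb1 KO libraries without UNC0642 thus lay within the range of the libraries without deletion for the prolactin genes other than Prl4a1. The cathepsins summed to between 0 and 0.0722 CPM without deletion, to 0.423 and 0.275 after it and to 0.104 and 1.29 after deletion with UNC0642.

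Ceacam1 and Ceacam2 are neighbours of common origin on the minus strand of chromosome 7, Ceacam1 from 25461707 to 25477603 and Ceacam2 from 25516042 to 25539857. Ceacam2 made up 17.1% (95% Wilson interval 8.53% to 31.3%) and 14.2% (11.3% to 17.6%) of their joint counts in WT mESCs and 12.1% and 12.6% with UNC0642. After deletion its share was 74.5% (72.4% to 76.4%) and 75.1% (72.7% to 77.4%), and after deletion with UNC0642 62.0% (58.9% to 65.0%) and 69.9% (67.3% to 72.3%). Ceacam1 was the higher of the pair in all 4 libraries without deletion and Ceacam2 in all 4 with it. Per kb of exon the mean level went from 0.400 CPM for Ceacam2 and 1.51 for Ceacam1 in WT mESCs to 14.9 and 3.27 in Setdb1 KO mESCs. The transcripts share 24.8% of the 150-base windows of Ceacam2 and 24.5% of those of Ceacam1, so part of the reads of either gene may have been counted for the other. The gene 4732471J01Rik overlaps both on the opposite strand and had between 12 and 120 counts per library, with 120 and 64 in Setdb1 KO mESCs against 12 and 118 in WT mESCs. Counting was run with default parameters, whose strand setting is not given in the sources used here, and without strand the reads of these genes cannot be told apart. Ceacam19, Prl4a1 and Ctsr share no such window with another gene.

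**Figure D4:**
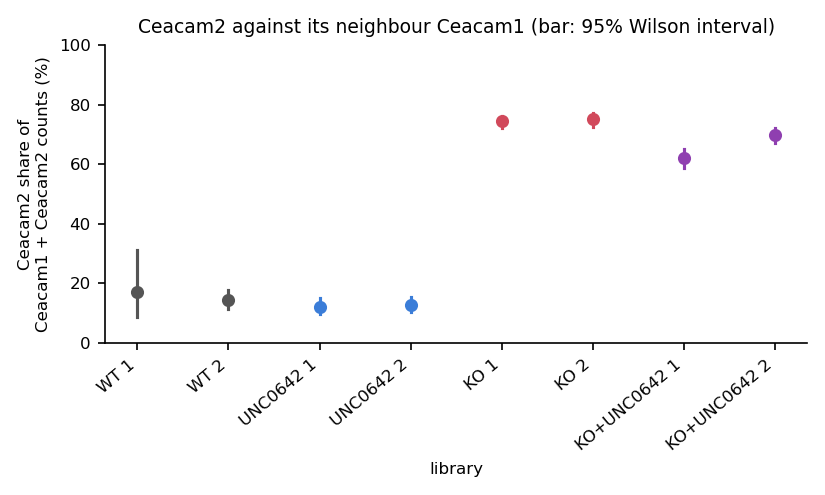
Share of Ceacam2 in the joint counts of Ceacam1 and Ceacam2 in each library (points), in percent, with the 95% Wilson interval as a bar, which covers counting error only. The 4 libraries without deletion lie between 12.1% and 17.1% and the 4 with deletion between 62.0% and 75.1%.

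A second close pair is Psg23 and Psg21, whose promoters are printed above. Of the 304 aligned positions of their promoters 96.4% were identical, with 3 mismatches and 8 gap positions. Psg23 had 1152 counts over the 8 libraries and Psg21 had 2, both in libraries with deletion. Psg21 was singled out after its values were seen. The Psg21 transcript shares 11.5% of its 150-base windows with Psg23, so most of it is distinct enough for its reads to be attributed. Neither promoter held any of the 5 motifs that were searched.

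These motifs were searched on both strands in the promoters of the 52 members that had an entry, and no motif contains another. A single promoter was taken for each member, whereas the 32851 promoters of the comparison include several for some genes. AGATAA was present in 32.7% of these promoters and in 11.2% of all 32851, TATAAA in 21.2% and 13.6%, GGAATG in 15.4% and 14.7%, GCCNNNGGC (AP-2) in 9.62% and 16.6% and ATGCAAAT (octamer) in 3.85% and 1.74%. The promoters of members had a median of 2 CpG and 45.2% GC, against 7 and 52.7% over all genes, here with a single promoter per gene on both sides. Many member promoters are copies of one another, so these shares are a description of the families. Of the 4 printed for a call, Ceacam2 held AGATAA 189 bases before the start and Prl4a1 held it on the opposite strand 242 bases and GGAATG 193 bases before the start, while Ceacam19 and Psg23 held none.

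Inhibition of G9a/GLP alone, tested by UNC0642-treated against WT mESCs, gave no call for any member. This was so by edgeR with and without the block and by DESeq2 on 8 or 4 libraries, and 1 of the 8 tested members, Ceacam20, had an unadjusted p under 0.05. Over all genes 0 were called without the block, with 522 at an unadjusted p under 0.05, and 0.176% were called higher with it. The log2 fold change of Ceacam20 was 1.74 (95% confidence interval 0.19 to 3.29, adjusted p = 1.0). For Ceacam1 it was 1.26 (-0.37 to 2.90), for Ceacam2 0.92 (-0.45 to 2.29), for Ceacam19 1.24 (-0.89 to 3.37) and for Psg23 -0.19 (-1.43 to 1.06). The low WT replicate 1 lies under several of these values, and the intervals include changes of over 4-fold for Ceacam1, Ceacam2, Ceacam19 and Ceacam20.

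The comparison of UNC0642-treated Setdb1 KO with Setdb1 KO mESCs asks what the inhibitor adds once Setdb1 is deleted. No member was called higher or lower, with or without the block or by DESeq2 on 8 or 4 libraries, and none of the 8 had an unadjusted p under 0.05. Over all genes 0 were called without the block, with 720 at an unadjusted p under 0.05, and 0.118% were called higher with it. The log2 difference was -0.24 for Ceacam2 (-1.53 to 1.05), 0.22 for Psg23 (-0.95 to 1.39), 0.90 for Ceacam19 (-0.69 to 2.50) and -0.22 for Prl4a1 (-2.34 to 1.90). For Ceacam2 and Psg23 a further rise as large as that seen on deletion lies outside these intervals, and a rise of up to 2-fold lies within them. Ceacam19 was at 2.33 and 2.37 CPM in Setdb1 KO and at 4.46 and 4.34 CPM in UNC0642-treated Setdb1 KO mESCs, with no overlap, though this difference did not pass the test. The interaction of deletion and inhibitor was not called for any member, with log2 values of -1.16 (SE 0.83) for Ceacam2, 0.41 (SE 0.76) for Psg23, -0.33 (SE 1.07) for Ceacam19 and -2.33 (SE 2.05) for Prl4a1. The value of Prl4a1 rests on 0 counts in both WT libraries and 0 and 1 with UNC0642.

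Under the inhibitor the effect of the deletion can be read a further time, with UNC0642-treated mESCs in place of WT mESCs. In UNC0642-treated Setdb1 KO against UNC0642-treated mESCs, 3 of the 8 tested members were called higher, Ceacam2, Psg23 and Ceacam19 (0.869% of all genes, and 2.91% with the block, which called the same 3). Of these, Ceacam19 had passed the filter only through the libraries with deletion. The log2 fold changes were 3.99 (SE 0.65, adjusted p = 0.027) for Ceacam2, 3.61 (SE 0.58, adjusted p = 0.025) for Psg23 and 4.25 (SE 0.83, adjusted p = 0.0499) for Ceacam19. All 3 are over 10-fold, where 0.686% of all genes were called. None of the 3 passed under total counts normalization or when UNC0642-treated replicate 1 or 2 or UNC0642-treated Setdb1 KO replicate 1 was left out, and Ceacam2 alone passed without replicate 2 of the latter. Ceacam19 lay at the threshold and was also lost without either Setdb1 KO library, in the fit to 4 libraries and in that to genes only (adjusted p between 0.052 and 0.068). Prl4a1 was at a log2 fold change of 4.64 (SE 1.26, adjusted p = 0.19). With 0 and 1 counts in UNC0642-treated mESCs this is not a firm size.

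Against WT mESCs, UNC0642-treated Setdb1 KO mESCs had the same 3 members called higher (3.08% of all genes). The block called Prl4a1 in addition (8.09% of all genes), at an adjusted p of 0.023, as did DESeq2 on 8 libraries (adjusted p = 0.038). All 3 were over 10-fold (2.61% of all genes), with log2 fold changes of 4.91 (SE 0.69) for Ceacam2, 3.42 (SE 0.58) for Psg23 and 5.49 (SE 0.93) for Ceacam19. Over the alternatives the value ran from 4.29 to 6.29 for Ceacam2 and from 4.62 to 9.46 for Ceacam19, whose WT mean of 0.0722 CPM lies under the floor of 0.185 CPM, so that its fold change is not a firm size. This comparison shares its WT libraries with that of Setdb1 KO mESCs and its treated libraries with the one before. No member was called without WT replicate 1, and Ceacam2 alone without WT replicate 2.

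**Figure D5:**
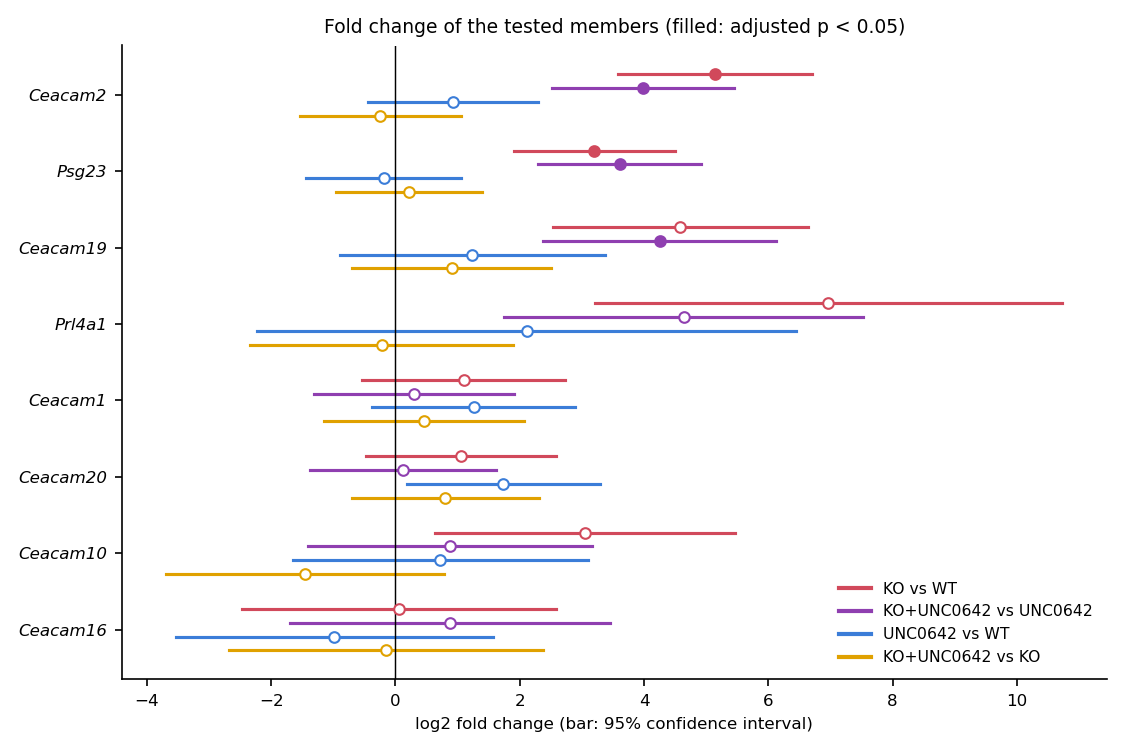
Log2 fold change (points) with 95% confidence interval (bars) of the 8 tested members in 4 comparisons, from the edgeR fit to all 8 libraries, filled where the adjusted p is under 0.05. For Ceacam2, Psg23, Ceacam19 and Prl4a1 the intervals of both comparisons of deleted with undeleted cells lie above 0, and those of UNC0642-treated against untreated cells include 0. The fold changes of Prl4a1 over undeleted cells rest on 0 or 1 counts there and are not firm sizes.

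There were 52 other genes between the outermost members of the clusters, of which 38 were tested, and none was called in any comparison without the block. With the block, Prr19 was called higher in Setdb1 KO over WT mESCs (2.8% of all genes). The pseudogene Sycp1-ps1 was called higher in UNC0642-treated Setdb1 KO over WT (8.09% of all genes) and over UNC0642-treated mESCs (2.91%). At 1 of the 38 in each comparison, these calls are a description and not a result about the clusters. In UNC0642-treated Setdb1 KO over WT mESCs 7 of the 38 were called lower (7.63% of all genes). Sycp1-ps1, in the main Psg and Ceacam cluster, had 2 and 4 counts in WT mESCs, 9 and 0 with UNC0642, 122 and 22 after deletion and 37 and 50 after deletion with UNC0642. It was higher in every library with deletion than in those without, and the share of all tested genes that separate in this way was not counted. Prr19, in the cluster of Ceacam10, Ceacam1 and Ceacam2, had 8 and 89 counts in WT mESCs, 11 and 62 with UNC0642, 124 and 184 after deletion and 15 and 178 after deletion with UNC0642, with replicate 2 the higher each time. Pvr, Igsf23 and Gm19345, which lie in the cluster of Ceacam19, were not called higher in any comparison, and Pvr was lower over WT mESCs in the block fit, in UNC0642-treated Setdb1 KO mESCs (log2 fold change -1.58, adjusted p = 0.024).

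Of 20 trophoblast regulators 16 were tested, and none was called higher in any comparison, with or without the block. Tfap2a, a transcription factor of the AP-2 family, had 5 and 9 counts in WT mESCs, 9 and 29 with UNC0642, 40 and 27 after deletion and 12 and 31 after deletion with UNC0642. Its log2 fold change of Setdb1 KO over WT mESCs was 2.08 (SE 0.77, adjusted p = 0.40), and it was singled out after its values were seen. With the block 5 were called lower in UNC0642-treated Setdb1 KO over WT mESCs (against the same 7.63%). It called 2 lower in Setdb1 KO over WT mESCs and 1 in UNC0642-treated Setdb1 KO over UNC0642-treated mESCs. The share of all genes called lower with the block was not counted for these other comparisons, so nothing is drawn from their counts. Among the 5 were Ets2, a transcription factor of trophoblast stem cells, at a log2 fold change of -1.45, the placental homeobox genes Dlx3 at -3.83 and Esx1 at -2.58, and Sox15, a partner of Hand1 in giant cells, at -1.61. The list summed to between 252 and 1429 CPM, with the highest value in Setdb1 KO replicate 1. This sum was largely Peg10, with 88397 counts over all libraries, against 6187 for the next gene of the list, Tfap2c. The 9 labyrinth and syncytiotrophoblast markers had 7 tested, none higher, and 2 lower with the block in the same comparison, the monocarboxylate transporters Slc16a1 and Slc16a3. The 7 spongiotrophoblast and glycogen cell markers had 3 tested and none called. The list of primitive and visceral endoderm markers summed to between 11.7 and 80.0 CPM, with Gata4 lower in UNC0642-treated Setdb1 KO over UNC0642-treated mESCs with the block and no other call in 8 tested genes.

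In the prolactin and growth hormone receptor pathway 7 of 9 genes were tested, and Cish, an inhibitor of the receptor's signalling, was called lower over WT mESCs in the block fit, in UNC0642-treated Setdb1 KO mESCs. Of the 14 cathepsins outside the placental cluster 9 were tested, and Ctsc was called higher with the block in the same comparison. Of the 8 cystatin and Ctla2 genes, which inhibit cysteine proteases, 4 were tested. Stfa1 had 0 counts in the 4 libraries without deletion, 16 and 18 after deletion and 8 and 17 after deletion with UNC0642, and was called higher over WT mESCs in the block fit, in UNC0642-treated Setdb1 KO mESCs (adjusted p = 0.029). None of these lists had a call without the block. With it 8.09% of all genes were called higher and 7.63% lower in UNC0642-treated Setdb1 KO over WT mESCs.

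Among the other cell types whose markers were followed, 6 of 8 fibroblast, 2 of 8 immune and 4 of 8 gut and airway markers were tested, and none was called without the block. The sums were between 4.42 and 21.1 CPM for fibroblast, 1.92 and 8.45 for immune and 3.20 and 8.10 for gut and airway markers. The fibroblast sums followed the replicate number, at 4.42 to 10.2 CPM in replicates 1 and 17.8 to 21.1 CPM in replicates 2. With the block Lum and Cd3e were called higher (8.09% of all genes) and Muc2 lower (7.63%) in UNC0642-treated Setdb1 KO over WT mESCs. Lum was also called higher over UNC0642-treated mESCs (2.91%). The part of these cell types in the results above was not tested.

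RLTR13 subfamilies, long terminal repeats of endogenous retroviruses of which some are enhancers in trophoblast stem cells, were measured in the same libraries. All 11 were tested and together were at 36.9 and 22.6 CPM in WT mESCs, 50.2 and 31.4 with UNC0642, 189 and 93.4 after deletion and 225 and 151 after deletion with UNC0642. In Setdb1 KO over WT mESCs 1 was called higher (4.94% of the 932 subfamilies), RLTR13D6 at a log2 fold change of 2.61 (SE 0.48, adjusted p = 0.039). The median over the 11 was 1.97, against -0.02 over all features, most of which are genes (15313). The median over all subfamilies was not taken, so whether RLTR13 differed from other repeats cannot be read from this. In UNC0642-treated Setdb1 KO over WT mESCs 3 were called (12.1% of subfamilies), RLTR13B1, RLTR13D and RLTR13D6, and over UNC0642-treated mESCs RLTR13D6 (5.36%). With the block 4, 8 and 5 of them were called higher in these comparisons. The share over all subfamilies was not counted in that fit. The block also raised the share of genes called higher, to 2.8%, 8.09% and 2.91%, from 0.882%, 3.08% and 0.869%. These are sums over all copies of a subfamily, and whether a copy near a member was among them was not tested.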

How the data were processed

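RNA-seq of poly(A) RNA covered 4 conditions of mESCs with 2 libraries each, grouped by their titles. The authors trimmed the reads with Trim Galore 0.3.7, mapped them with TopHat to GRCm38 (mm10) and counted genes and transposable element subfamilies with TEtranscripts. The tables deposited by the authors hold raw counts per feature, neither normalized nor filtered. TEtranscripts shares reads that map to several places, which touches close copies among these families. The methods call the replicates biological and give no more on their origin.

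Low features were removed with filterByExpr (10 counts, 15 in total). The rest were normalized by TMM and fitted with the quasi-likelihood test of edgeR 4.0.16 (R 4.3.3) over 8 libraries, with a prior count of 0.125 and Benjamini-Hochberg adjustment over 15313 genes and 932 subfamilies. Calls were made at an adjusted p under 0.05. Confidence intervals of 95% came from the standard error of the fit. The deviations of replicates 1 and 2 correlated across features in all 6 pairs of conditions (Pearson's r between 0.28 and 0.66), so the replicate numbers were taken as pairs, and the fit with the number as a block is given where it changes a call. Alternatives were DESeq2 1.42.0 on 8 or 4 libraries, edgeR on 4 libraries, RLE and total counts normalization, no filter, genes only, a prior count of 2, and leaving out each library. Total counts normalization set the median log2 fold change over all features to -0.18 in UNC0642-treated Setdb1 KO over WT mESCs, -0.23 over UNC0642-treated mESCs and -0.12 over Setdb1 KO mESCs, against -0.01, -0.02 and -0.01 with TMM.

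All members were accounted for. Those with at least 10 counts over the 8 libraries are described, tested members with the counts of every library and the others with their range, and members below are named without values, except Psg21. From other lists at most 4 called genes a list are named, by smallest p. Promoters (RefSeq) are printed for called members. Identity between proteins of a family was not analysed here. Members were taken by symbol, but the choice of these families, and the lists, were made with earlier results of these data known. Python 3.11.15 with Biopython 1.88 and scipy 1.17.1 was used for sequences and intervals.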

Additional observations from a re-analysis of the deposited data

How the results depend on the processing

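Members called higher in Setdb1 KO over WT mESCs numbered 2, against 4 with the replicate block, 1 under total counts normalization and between 0 and 2 when 1 library was left out (0 without either WT library, 1 without any of the libraries with deletion). They numbered 3 in UNC0642-treated Setdb1 KO over WT mESCs, against between 0 and 3 when 1 library was left out. They numbered 3 in UNC0642-treated Setdb1 KO over UNC0642-treated mESCs, against 0 under total counts normalization and between 0 and 3 when 1 library was left out. No member was called lower in any comparison, and none higher in UNC0642-treated over WT mESCs or UNC0642-treated Setdb1 KO over Setdb1 KO mESCs, under any of the 17 alternatives. The block changed no call of a member beyond those given with the results. The fold changes of Ceacam2, Psg23, Ceacam19 and Prl4a1 kept their direction in each comparison of deleted with undeleted cells under all alternatives. Without TMM factors the mean sum of the Ceacam genes was 34.3 CPM in UNC0642-treated mESCs and that of the Psg genes 14.9 CPM in UNC0642-treated Setdb1 KO mESCs. Of differences that were not called in any fit, some changed sign. When 1 library was left out, the log2 change from Setdb1 KO to UNC0642-treated Setdb1 KO mESCs ranged from -0.42 to 1.05 for Ceacam1, -2.30 to 1.06 for Ceacam10, -1.12 to 0.52 for Ceacam16, -0.77 to 0.19 for Ceacam2, -0.63 to 0.34 for Prl4a1 and -0.10 to 0.63 for Psg23. Over UNC0642-treated mESCs it ranged from -0.59 to 0.85 for Ceacam1 and -0.14 to 3.02 for Ceacam16. That of UNC0642-treated over WT mESCs ranged from -3.15 to 0.41 for Ceacam16 and -0.53 to 0.23 for Psg23, and that of Ceacam16 from -0.66 to 1.4 in Setdb1 KO and -1.12 to 1.26 in UNC0642-treated Setdb1 KO over WT mESCs. Total counts normalization gave -0.0036 for Ceacam16 in Setdb1 KO over WT mESCs and -0.11 for Ceacam20 in UNC0642-treated Setdb1 KO over UNC0642-treated mESCs. A condition left with 1 library is assumed to vary like the others. The causes were not tested. At this depth 42 of the 62 members stayed under 10 counts in all libraries together, and no difference between conditions can be read for them.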
